A study of Mus musculus with 9 samples.

Results

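The genes described here are 8 genes of macrophages, monocytes and neutrophils: the complement genes C1qa, C1qb and C1qc, the receptor genes Cd14, Csf3r and Csf1r, and the lysosomal and secreted product genes Cd68 and Lyz2. They were chosen by symbol in the authors' deposited gene table, and all 8 had a row among its 17511 genes. The study measured colon epithelial cells of mice, freed from fresh colon with EDTA, in 9 libraries. RNA-seq was run on 2 libraries labelled DKO and 2 labelled Wt, ATAC-seq, which maps open chromatin, on another 2 and 2, and ChIP-seq of the homeobox factor Cdx2 on 1 library labelled Wt. By their strain labels the DKO samples were Cdx1-/-Cdx2f/f vill (+) and the Wt samples Cdx1-/-Cdx2f/f vill (-), so by the labels a Cdx1 null and a floxed Cdx2 allele were common to both groups and only the vill tag differed. The RNA and ATAC mice of both groups received tamoxifen for 6 days, and the ChIP sample is tagged untreated. The labels do not spell out vill, and the age of the mice and whether replicates were separate animals are not given in sources used here. The p-values then rest on the spread between the samples at hand, and that spread may be technical.

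The RNA libraries held 16403301 to 25494309 estimated reads. Cdx2 was at a log2 fold change of -0.27 (SE 0.21, with adjusted p = 0.301) by the authors' deposited table. Cdx1, null in both groups by the strain labels, had a mean of 2595 normalized counts and was at -1.06 (SE 0.23, with adjusted p = 2.08e-05) by the authors' deposited table, which goes against a null without transcripts in both groups. A gene total does not resolve a disrupted exon, so DKO and Wt below mean the libraries so labelled. Epithelial genes were abundant, with the means of 12 of them summing to 561858 normalized counts, against 1062 for 9 defining macrophage and monocyte markers and 4581 for the 9 neutrophil markers measured of 12. These sums are not per length. Of the neutrophil sum, Ly6g, S100a8 and S100a9 held 2958, 808.9 and 624.8. The neutrophil markers Fpr1, Ngp and Mmp8 had means of only 3.16, 11.8 and 13.4 normalized counts. Camp, Elane and Mpo of the neutrophil markers were not analysed here, and the macrophage markers Fcgr1, Aif1 and Adgre1 had means of only 10.7, 16.2 and 22.7 normalized counts. Transcripts of the macrophage markers were thus a small part of the normalized counts, and none of the values below assigns a transcript to a cell type. In bulk RNA, fewer cells of a type and less RNA per cell cannot be told apart.

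C1q is the recognition molecule of the classical complement pathway, built from the products of C1qa, C1qb and C1qc, and tissue macrophages are its main source. Cd14 encodes a co-receptor that hands bacterial lipopolysaccharide to the Toll-like receptor Tlr4. Csf1r is the receptor for the growth factors Csf1 and Il34 on which macrophages depend, whereas Csf3r is the receptor for Csf3, the growth factor of neutrophils. Cd68 is a glycoprotein of the macrophage lysosome, and Lyz2 is the lysozyme of macrophages and neutrophils, which cleaves bacterial cell walls.

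The 8 genes did not move together. At an adjusted p under 0.05 in the authors' deposited table, Cd14 and Csf3r were higher in the libraries labelled DKO, C1qa, Lyz2 and C1qc were lower, and C1qb, Csf1r and Cd68 were not called. That is 5 of 8 called, 2 higher and 3 lower, where 36.8% of all 17511 genes were called, 18.5% higher and 18.3% lower. The median log2 fold change of the 8 was -0.21, against -0.02 over all genes of the table. A log2 fold change is DKO over Wt throughout, as the authors' deposited table gives it. The files used here pair no transcript identifier with a gene, so each gene has 1 deposited mean, fold and error, and whether the libraries of both groups overlap is not known.

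**Figure D1:**
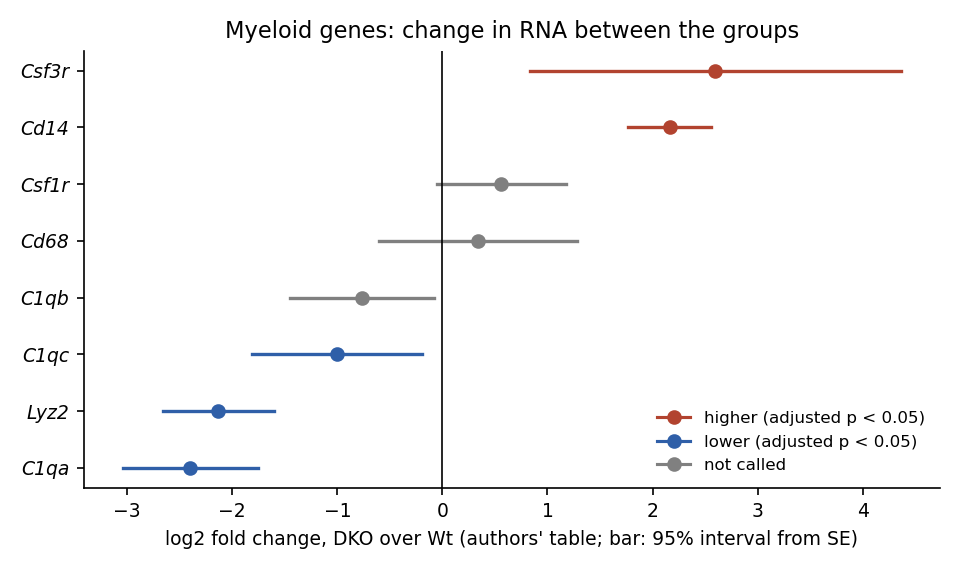
Log2 fold change (DKO over Wt) of the 8 genes from the authors' deposited table, with 95% intervals from its standard errors; colour marks the direction of genes with an adjusted p under 0.05. Cd14 and Csf3r lie above 0, C1qa, Lyz2 and C1qc below, and the interval of Csf3r is the widest, from 0.83 to 4.36.

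The complement genes pointed down, to different extents. C1qa (ENSMUSG00000036887, chromosome 4, 136895916 to 136898844, GRCm38) fell by 2.40 on the log2 scale (SE 0.33, with adjusted p = 9.79e-13 by the authors' deposited table), which puts Wt 5.28-fold above DKO, at a mean of 233.9 normalized counts. C1qc (ENSMUSG00000036896, 136889801 to 136892936) fell by 1.00 (SE 0.41, with adjusted p = 0.0230 by the authors' deposited table), which puts Wt 2.00-fold above DKO, at a mean of 111.7. C1qb (ENSMUSG00000036905, 136880126 to 136886200) stood at -0.76 (SE 0.35) with an adjusted p of 0.0502 in the authors' deposited table, just short of the threshold, at a mean of 165.0. With p readjusted over genes of at least 50 normalized counts, C1qb passed (adjusted p = 0.0417). The 3 genes lie side by side within 18.7 kb, and their chains assemble into a single protein. The 95% interval of C1qa, -3.04 to -1.76, did not reach that of C1qb, -1.45 to -0.08, and met that of C1qc, -1.81 to -0.19, between -1.81 and -1.76. A difference between the 3 folds was not tested, since they come from the same libraries.

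As an aid to reading these values, the level in each group can be worked out from the deposited mean and fold, if both groups weigh equally in the mean. C1qa then stood at 393.3 normalized counts in Wt and 74.6 in DKO. C1qb stood at 207.7 and 122.4, and C1qc at 149.0 and 74.4. These are approximate, because the deposited folds appear to be shrunken towards 0: fold over SE was smaller than the z of the deposited p in 17337 of 17511 genes. Among the 8 genes the gap was widest for Csf3r, with a fold over SE of 2.89 against a z of 3.65.

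**Figure D2:**
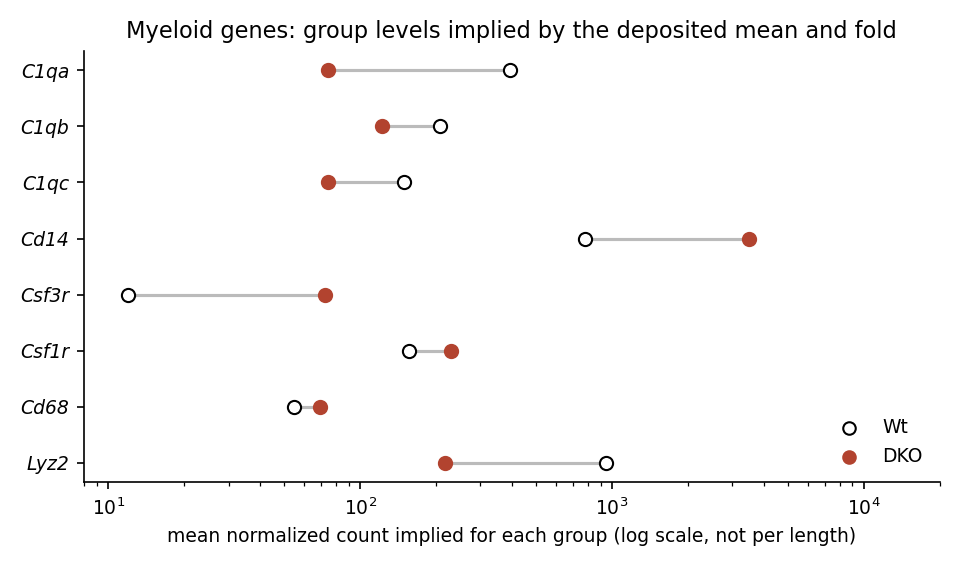
Mean normalized count of each of the 8 genes in Wt (open circles) and DKO (filled circles), worked out from the deposited mean and fold, on a log axis and not per length. Cd14 goes from 780.7 to 3497 and Csf3r from 11.9 to 72.3, while C1qa goes from 393.3 to 74.6 and Lyz2 from 947.8 to 216.4.

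The sequences before the starts of C1qb and C1qc are shown because these neighbouring genes encode chains of a single protein. RefSeq's GRCm38.p6 promoter table gave 250 bases before a transcript start for 5 of the 8 genes, these and Csf3r, Cd68 and Lyz2. For C1qb the start is the end of the gene span given above (chr4:136886201-136886450, minus strand). For C1qc it is 136892914, 22 bases inside the span, and the 228 bases outside the span are shown (chr4:136892937-136893164, minus strand). For Csf3r the start lies 1218 bases inside the span and the whole window within the gene, so it is not shown. Capitals mark matches, on either strand, to GAGGAA (the PU-box of the myeloid factor PU.1, made by Spi1), TGANTCA (AP-1) or TTTATG (a core of CDX factor sites). No 2 matches overlap.
C1qb: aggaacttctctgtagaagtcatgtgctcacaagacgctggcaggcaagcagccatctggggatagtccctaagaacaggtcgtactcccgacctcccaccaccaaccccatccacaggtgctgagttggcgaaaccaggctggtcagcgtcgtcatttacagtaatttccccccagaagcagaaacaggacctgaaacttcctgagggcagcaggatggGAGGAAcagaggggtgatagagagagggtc
C1qc: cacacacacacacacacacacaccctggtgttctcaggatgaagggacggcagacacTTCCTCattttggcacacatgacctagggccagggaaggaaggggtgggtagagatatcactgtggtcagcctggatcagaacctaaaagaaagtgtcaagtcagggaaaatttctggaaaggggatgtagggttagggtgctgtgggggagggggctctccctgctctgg
Both held 1 PU-box, whose first base lay 30 bases before the transcript start in C1qb and 193 bases before it in C1qc. Neither 250-base window held the AP-1 or the CDX letters. Over all 32851 promoter windows of this length, 23.3% held the PU-box letters, 6.75% the AP-1 letters and 10.8% the CDX letters. A match describes the letters only.

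Other complement genes were split. Of 31 measured of the 41 listed, 6 rose and 5 fell by the authors' deposited table (35.5% called, against 36.8% over the whole table), and their median fold was -0.10 on the log2 scale. Among the partners that join C1q in the C1 complex, the protease gene C1s1 was lower at -1.61 (SE 0.50, with adjusted p = 0.00150 by the authors' deposited table). C1ra, the other protease of the complex, was at 0.15 (SE 0.44) and its copy C1rb at -0.03 (SE 0.74), and neither was called by the authors' deposited table. Serping1, the inhibitor of C1, was lower at -2.27 (SE 0.34) by the authors' deposited table. Further down the cascade, C3, the component on which all complement pathways meet, was higher at 2.46 (SE 0.40) and a mean of 7300 normalized counts by the authors' deposited table. C1rl, a protease related to C1r, was higher at 2.47 (SE 0.54) by the authors' deposited table. Cfd, the factor D protease of the alternative pathway, was lower at -11.05 (SE 3.09) by the authors' deposited table, an error that leaves the size loosely set. C1s1 and Serping1 are also made by stromal cells, and the list of 20 stromal, muscle and endothelial markers stood at 18 lower and 1 higher with a median of -4.83 in the authors' deposited table, from a summed level of 25195 normalized counts worked out for Wt to 2236 for DKO. Its part in these results was not tested.

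Lyz2 (ENSMUSG00000069516, chromosome 10, 117277541 to 117282272) fell by 2.13 on the log2 scale (SE 0.27, with adjusted p = 2.13e-14 by the authors' deposited table), which puts Wt 4.38-fold above DKO, at a mean of 582.1 normalized counts. Its near-identical neighbour Lyz1 (117287795 to 117292868), the lysozyme of Paneth cells, lies 5.5 kb away and went the other way, at 3.07 (SE 0.42, with adjusted p = 7.26e-13 by the authors' deposited table) and a mean of 1069. The levels worked out for Lyz1 were 227.6 in Wt and 1911 in DKO, against 947.8 and 216.4 for Lyz2. Summed, the pair went from 1175 to 2128, a 1.81-fold difference with no test. Reads can be split between such copies, so the values of both are uncertain, and the part of read assignment was not tested.

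The 250 bases before the start of Lyz2 (chr10:117282273-117282522, minus strand, RefSeq, GRCm38.p6) are shown for comparison with the C1q genes, which were also lower or pointed down.
Lyz2: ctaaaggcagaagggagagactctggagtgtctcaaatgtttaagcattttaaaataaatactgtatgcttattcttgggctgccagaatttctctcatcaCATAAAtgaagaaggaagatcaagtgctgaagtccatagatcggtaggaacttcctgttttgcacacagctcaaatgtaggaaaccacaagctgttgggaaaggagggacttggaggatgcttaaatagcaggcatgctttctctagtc
This window held no PU-box letters and 1 match to the CDX letters, on the reverse strand (CATAAA), 149 bases before the start. The PU-box letters were not limited to genes that fell. The windows of Csf3r, which was higher, and Cd68, which was not called, held them too, 86 and 225 bases before the start. That of Cd68 also held 2 AP-1 matches.

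Cd14 (ENSMUSG00000051439, chromosome 18, 36725064 to 36726815) rose by 2.16 on the log2 scale (SE 0.20, with adjusted p = 1.32e-25 by the authors' deposited table), a 4.48-fold higher level in DKO, at a mean of 2139 normalized counts. Of the 8 genes it had the smallest adjusted p. Its fold exceeded that of 96.9% of all genes. Its mean stood above 1062, the summed means of the 9 defining macrophage and monocyte markers. Which cells held the Cd14 transcripts was not tested. The partners of Cd14 were higher in part. Lbp, which brings lipopolysaccharide to Cd14, was higher at 3.46 (SE 0.36, with adjusted p = 2.69e-21 by the authors' deposited table). Tlr4 was at 0.77 (SE 0.39, adjusted p = 0.0743) and its co-receptor Ly96 at 0.92 (SE 0.48, adjusted p = 0.0694), neither of them called by the authors' deposited table. Traf6, an adaptor ligase of Toll-like receptor signalling, was higher at 2.14 (SE 0.24) by the authors' deposited table.

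Csf3r (ENSMUSG00000028859, chromosome 4, 126023441 to 126044975) rose by 2.60 on the log2 scale (SE 0.90, with adjusted p = 0.00136 by the authors' deposited table), a 6.06-fold higher level in DKO. Its mean was only 42.1 normalized counts, the lowest of the 8, and with an interval of 0.83 to 4.36 its size is loosely set. Neither Csf3r nor C1qc passed under a Bonferroni adjustment over all genes. Csf3, the ligand of Csf3r, was at 6.11 (SE 3.00, adjusted p = 0.00187) and a mean of 11.7 by the authors' deposited table. Behind the receptor, the kinase gene Jak2 was higher at 1.41 (SE 0.25) and Socs3, a feedback inhibitor of this signalling, at 2.08 (SE 1.18, adjusted p = 0.0224) by the authors' deposited table. Their means, 1866 and 1185, stood far above that of Csf3r. Whether they changed in the cells that express Csf3r was not tested. Over all 16 ligands and partners measured of 17, the authors' deposited table had 9 higher and 1 lower, with a median of 0.86, where 18.5% of all genes were higher and 18.3% lower. This list too was chosen with earlier results of these data known. The lower gene was Irak4, a kinase behind Tlr4, at -1.12 (SE 0.29, adjusted p = 0.000362) by the authors' deposited table. Csf2 was not analysed here.

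Csf1r and Cd68 were not called. Csf1r (ENSMUSG00000024621, chromosome 18, 61105572 to 61131139) stood at a log2 fold change of 0.56 (SE 0.31, with adjusted p = 0.126 by the authors' deposited table) at a mean of 193.0, with an interval of -0.05 to 1.18. Cd68 (ENSMUSG00000018774, chromosome 11, 69664213 to 69666170) was at 0.34 (SE 0.48, with adjusted p = 0.568 by the authors' deposited table) at a mean of 61.9, with an interval of -0.60 to 1.28. These intervals leave room for a rise of over 2-fold in either gene, and the lower bounds do not reach the fold of C1qa or Lyz2. Of the ligands of Csf1r, Csf1 was at 0.57 (SE 0.45) and Il34 at -0.42 (SE 0.66) by the authors' deposited table, and neither was called. Ordered by fold, C1qa, Lyz2, C1qc and C1qb stood below 0 and Cd68, Csf1r, Cd14 and Csf3r above. The intervals overlapped between all neighbours in this order but Csf1r and Cd14, where 1.18 lay below 1.77.

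**Figure D3:**
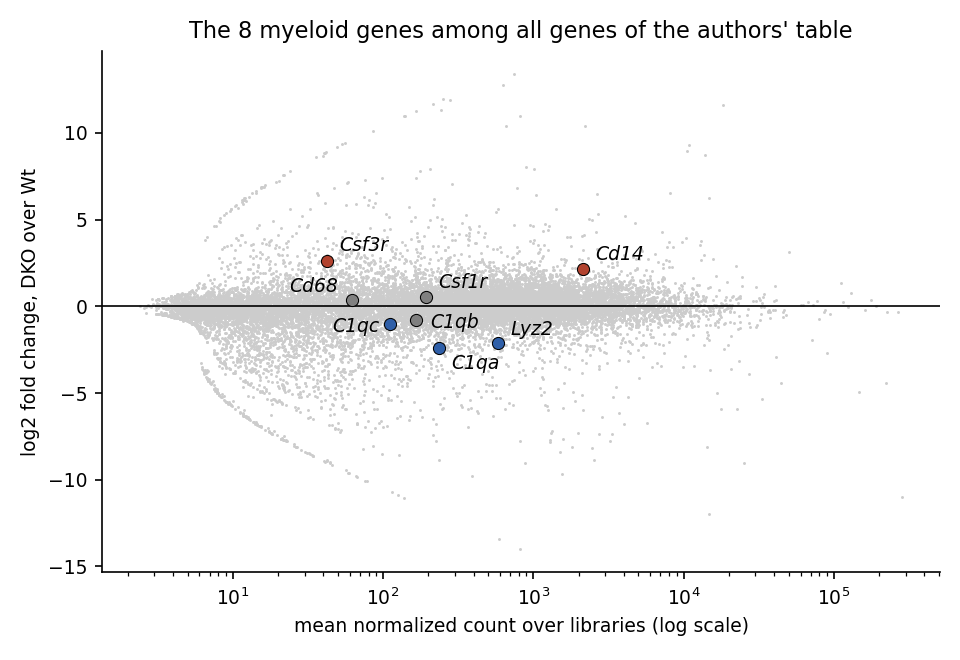
Mean normalized count (log axis) against log2 fold change (DKO over Wt) for all 17511 genes of the authors' deposited table in grey, with the 8 genes marked. Csf3r sits at the low end at 42.1 normalized counts and Cd14 at the high end at 2139.

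Broader markers of macrophages showed no common direction. Of 33 tissue macrophage and monocyte genes measured of 36, 7 rose and 5 fell by the authors' deposited table, with a median of 0.23, and the 36.4% called stood beside 36.8% of all genes. Mpeg1, a pore-forming protein of macrophages, was at 1.04 (SE 0.33) and Itgam, the alpha chain of complement receptor CR3, at 1.15 (SE 0.55, adjusted p = 0.0378) by the authors' deposited table. Mertk, a receptor for dying cells, was lower at -1.54 (SE 0.31) by the authors' deposited table. Of the 9 defining markers 2 were higher, 1 was lower and 6 were not called, and their summed level worked out to 1239 normalized counts in Wt and 885.2 in DKO. Mertk was the most abundant of them, and without it the sum of the other 8 went the other way, from 393.2 to 595.0. The folds of C1qa and Lyz2 were larger in size than that of Mertk, a difference that was not tested.

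Of 24 neutrophil markers measured of 34, 14 were higher, 0 lower and 10 not called by the authors' deposited table, with a median of 2.25. The 58.3% called stood beside 36.8% of all genes, and 18.5% of all genes were higher. The list was chosen with earlier results of these data known, so these shares are a description and not a test. Among 12 markers whose mean reached 50, 7 were higher with p readjusted over genes of that level. Cd177, a surface protein of neutrophils and the most abundant of the list at a mean of 3135, was at -0.36 (SE 0.23, adjusted p = 0.207) by the authors' deposited table. Higher markers named by size were S100a9 and S100a8 (12.79, SE 3.86, and 10.99, SE 2.13), whose products form calprotectin, Ltf (4.99, SE 0.69), the iron-binding lactoferrin, and Mmp9 (4.16, SE 0.66), a gelatinase, all from the authors' deposited table. Genes near silent in Wt may enter such a table mainly where they rise, so the 10 listed genes not analysed bear on this count. The 9 defining neutrophil markers measured went from a summed level of 1290 normalized counts worked out for Wt to 7873 for DKO, with 8 of them higher and 0 lower. Ly6g made up most of the Wt sum, at 1254, and held 4662 of the DKO sum. Without it, the sum of the other 8 went from 35.4 to 3211. Of that DKO sum, S100a8 held 1617 and S100a9 1249. In Wt, Cd177, which is in neither sum, was worked out at 3527, far above the 35.4 of those 8 markers. Which cells held the Cd177 and Ly6g transcripts was not tested. Whether neutrophil number moved Csf3r was not tested. Lysosomal genes other than Cd68 were split, 5 higher and 4 lower of 16 (56.2% called) with a median of 0.05, among them the cathepsin gene Ctsl at 1.78 (SE 0.18) and the lysosomal hexosaminidase gene Hexa at -1.66 (SE 0.19) by the authors' deposited table. Lyz1 is 1 of the 5.

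**Figure D4:**
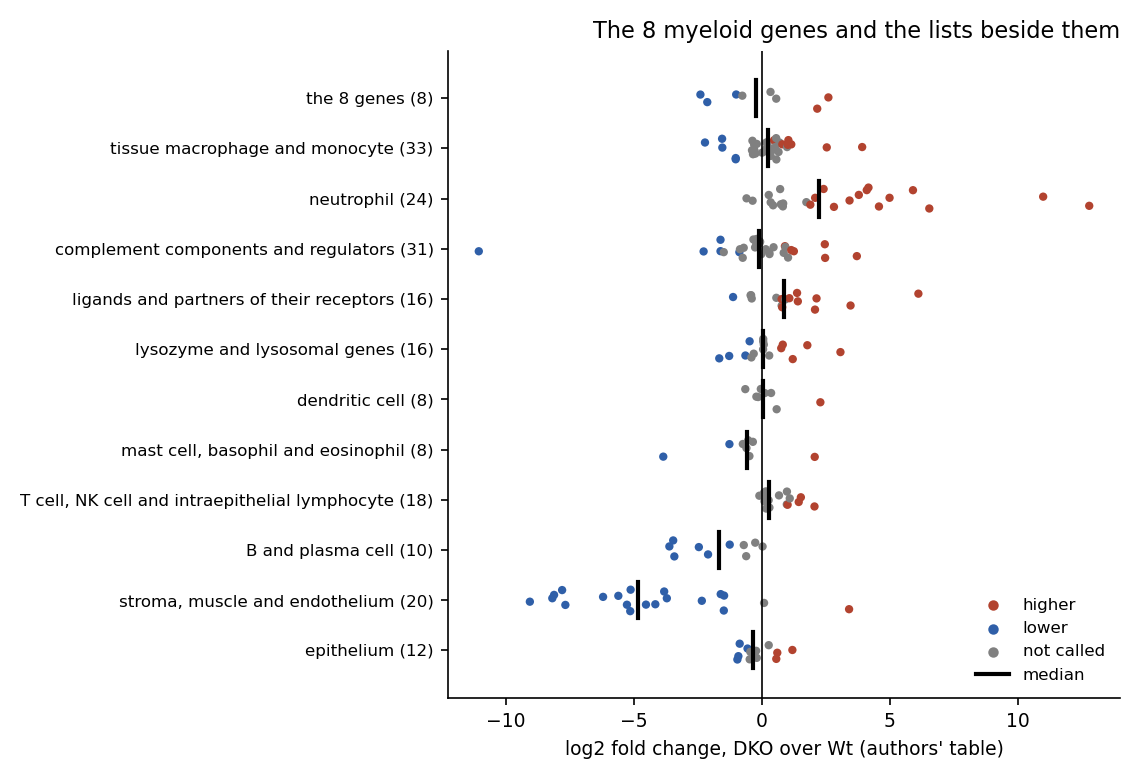
Log2 fold change (DKO over Wt, authors' deposited table) of each gene measured in the 8 genes and in 11 lists, with the number measured in brackets, colour for direction at an adjusted p under 0.05 and a black bar at each median. The neutrophil median lies at 2.25, the macrophage median at 0.23 and the stromal median at -4.83.

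Open chromatin at these genes was read from the authors' peak lists, called per library, taking any peak that touched the gene's RefSeq span or the 5 kb on each side. The lower and upper ends of a gene are those with the lower and higher coordinate. The fold enrichment of a peak over local background is the authors' own value. Only 1 of the 8 genes, Lyz2, had such a peak in each DKO library, against 60.1% and 61.5% of 14867 genes in DKO replicates 1 and 2. In Wt, 5 had one in replicate 1 and 4 in replicate 2, against 90% and 91.4% of genes. The C1q genes, which share a locus, had no peak in any of the 4 libraries, a state found in 5.04% of genes. Cd14, Csf3r, Csf1r and Cd68 had a peak in both Wt libraries and in neither DKO library, which held for 18.5% of genes. The DKO lists were shorter, at 40101 and 23961 peaks, than the Wt lists, at 48163 and 53943, with a median fold enrichment of 3.90 and 3.77 against 4.95 and 4.88. The part of this gap in the counts was not tested. With 2 libraries a group no exact test of a peak's presence can pass, so the peaks are described.

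At Cd14 the Wt peaks lay within the gene itself, at 36725590 to 36725698 on chromosome 18 in replicate 1 (fold enrichment 5.98, -log10 q 6.84) and at 36725614 to 36725899 in replicate 2 (6.37, 8.23). Neither DKO library had any peak within 20 kb of Cd14, while Cd14 RNA was higher in the RNA libraries labelled DKO. Peaks in both Wt libraries also stood 8.08 and 8.34 to 8.35 kb above the upper end of Cd14, in the neighbouring gene Tmco6. A Cdx2 peak of the single ChIP library lay in Tmco6 too, at 36736358 to 36736585 (fold enrichment 4.43, -log10 q 4.96), 9.54 kb from Cd14. This Cdx2 peak overlapped none of the Wt peaks in Tmco6, the upper of which ended at 36735486 in replicate 1 and 36735478 in replicate 2. It was the only Cdx2 peak within 20 kb of any of the 8 genes, and 0 of the 8 had one within 5 kb, against 15.9% of genes. The ChIP sample is tagged untreated, unlike the others.

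At Csf3r the Wt peaks were 1.86 kb above the upper end of the gene, at 126046839 to 126047238 in replicate 1 (fold enrichment 6.77) and 126046830 to 126047225 in replicate 2 (7.92), inside the span of Mrps15, a mitochondrial ribosomal protein gene. Cd68 had its Wt peaks below the lower end, inside the span of Mpdu1, at 1.42 kb in replicate 1 (fold enrichment 4.97) and 1.41 kb in replicate 2 (5.43). A further group of peaks, present in all 4 libraries, lay just outside the window, 5.03 to 6.28 kb above the upper end of Cd68, at or beside Eif4a1. Csf1r had 1 peak in each Wt library, both weak and inside the gene but at different places, 61127619 to 61127720 in replicate 1 (3.56) and 61108496 to 61108642 in replicate 2 (3.35). Counting only overlapping peaks of both Wt libraries leaves Cd14, Csf3r and Cd68, and of these only Cd14 has the peak in its own span.

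Lyz2 was the 1 gene with a DKO peak within 5 kb. DKO replicate 1 had a peak at 117273702 to 117273857 on chromosome 10 (fold enrichment 4.60, -log10 q 3.93) and replicate 2 at 117273775 to 117274000 (4.62, 4.55), 3.68 and 3.54 kb below the lower end, beyond the 3′ end of this minus-strand gene and in no other annotated gene. Both DKO libraries also shared a peak 18.0 to 18.1 kb below it. The Wt libraries had none of these and instead held peaks on the Lyz1 side, in replicate 1 at 2.69 kb (fold enrichment 3.96) and 10.6 kb and in replicate 2 at 10.5 kb. The peak at 10.5 kb overlapped the upper end of Lyz1, and the peak at 10.6 kb lay just beyond that end. The RNA of Lyz2 was lower in DKO and that of Lyz1 was higher. At C1qb the nearest peaks were in the DKO libraries, 10.9 kb below the lower end, at a fold enrichment of 3.30 and 3.29, and no Wt peak was within 20 kb of any C1q gene.

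**Figure D5:**
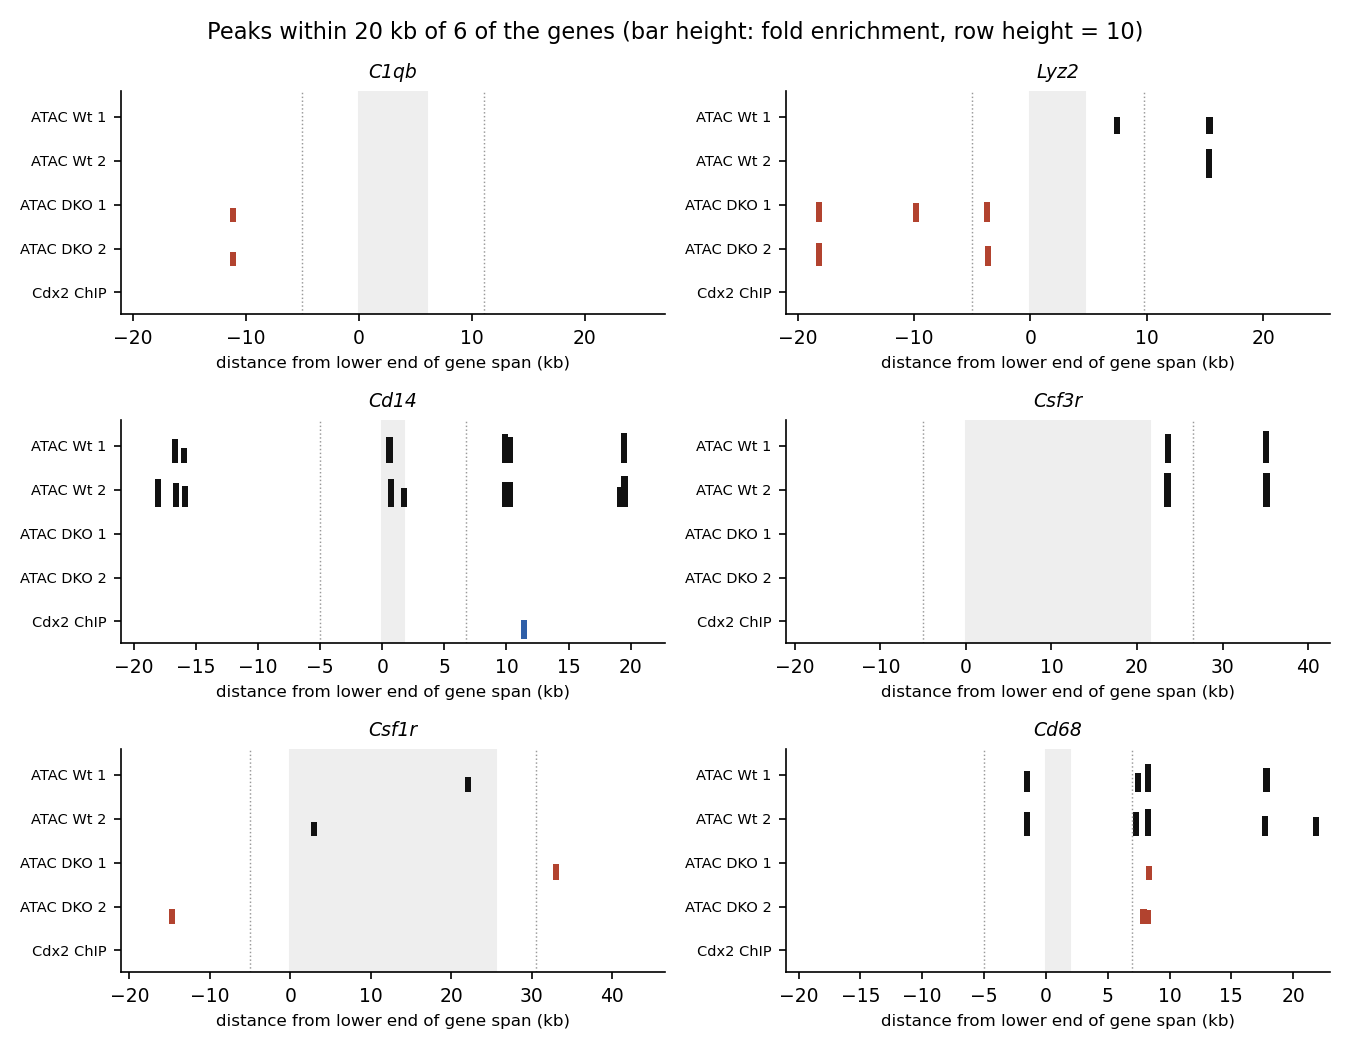
Peaks within 20 kb of 6 of the genes, by distance in kb from the lower end of the gene span (grey), 1 row per library, with bar height for the authors' fold enrichment (a full row is 10) and dotted lines at 5 kb. Cd14 and Csf3r have peaks in the Wt libraries only, Lyz2 has peaks in DKO on its left and in Wt on its right, and the Cdx2 row holds 1 peak, near Cd14.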

How the data were processed

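The members and the gene lists were chosen with earlier results of these data known. Build GRCm38 or mm10, Salmon 1.3.0, DESeq2, MACS2, BWA, Bowtie2 and fastp are named in the submitters' processing notes without roles, with settings not given in sources used here. The RNA files hold estimated counts per Ensembl transcript from single-end reads, made by the authors with Salmon, per the file headers. They were used here for library totals, for a comparison of replicates, and for a check of direction. Replicates differed beyond counting noise (chi-square over its degrees of freedom 42.9 for DKO and 28.2 for Wt), so none was taken for a repeat deposit of another; this does not tell separate animals from separate preparations. Of very abundant features that changed at least 16-fold, 0 transcripts were higher and 4 lower in DKO, as were 0 and 3 genes of the deposited table. The gene table holds the authors' mean normalized count, a signal that they scaled between libraries, per the file headers. The log2 fold changes and SEs, and the p-values with their adjustment over all genes, are the authors', per the file headers; the adjusted p equals a Benjamini-Hochberg adjustment of the deposited p. The planned edgeR tests per gene and library were not run, since nothing used here pairs transcripts with genes. Intervals are the deposited fold with a normal 95% range from its SE.

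Peak files give the authors' fold enrichment, a ratio over local background, and -log10 q for each peak, deposited per library. Genes were placed by RefSeq spans of GRCm38.p6, the assembly of mm10, for 14867 genes (84.9%), with an overlap of at least 1 bp in a 5 kb window. The text names all 8 genes, their direct partners and, of each of 11 lists, up to 4 called genes of largest fold at a mean of at least 50; some genes that this rule selects are not reported here. Analyses used Python 3.11.15, numpy 2.4.6, pandas 2.3.3 and scipy 1.17.1, with the adjustment and the overlap tested on simulated data.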

Additional observations from a re-analysis of the deposited data

How the results depend on the processing

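Of the 109 alternatives run, 86 kept their call or a count within 1.5 times. The RNA alternatives all reused the deposited folds, so none could reverse the direction of a gene. Over genes of at least 50 normalized counts Csf3r drops out, which leaves 1 of the 8 genes higher, and a Bonferroni adjustment also leaves 1 higher, with Csf3r and C1qc no longer passing. C1qb passed with p adjusted over genes of at least 50 (0.0417). It also passed by its interval, a looser bar, since an interval is not adjusted for the number of genes. The same minimum gave 7 higher in the neutrophil list, 3 lower in the complement list, 0 higher in the dendritic list, 0 higher and 1 lower in the mast cell list and 2 higher in the T cell list, since fewer genes are tested. A 2-fold minimum gave 3 higher and 2 lower lysosomal genes and 1 higher and 0 lower epithelial genes.

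A window of 1 kb left 2 genes with an ATAC peak, both present in Wt alone (Cd14 and Csf1r), and a -log10 q of at least 5 left 3 with a peak. With 20 kb, 2 genes had peaks in both Wt and neither DKO library, 1 had the opposite and 1 had a Cdx2 peak. Leaving out each ATAC library in turn gave 4 in every case for genes open in Wt alone, 5 for genes with any peak, and 0 to 1 for genes open in DKO alone. The 1 came without Wt replicate 1, whose peak keeps Lyz2 out of that class. Low counts limit Csf3r and Cd68, whose SEs (0.90 and 0.48) were the largest of the 8. Leave-outs of the count of any peak, and the count of overlapping Wt peaks, were chosen after seeing the data. No paired analysis was possible because gene values come from a table of 1 comparison with no columns per library, and for the same reason no RNA library could be left out.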

Other observations

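The remaining lists gave these values in the authors' deposited table, where 36.8% of all genes were called, 18.5% higher and 18.3% lower. T cell, NK cell and intraepithelial lymphocyte genes stood at 4 higher and 0 lower of 18 measured (22.2% called, median 0.28), among them Ptprc, the pan-leukocyte phosphatase CD45, at 1.01 (SE 0.31) and the granzyme gene Gzma at 1.44 (SE 0.59). B and plasma cell genes stood at 0 higher and 6 lower of 10 (60% called, median -1.68), with Mzb1, a chaperone gene of antibody-secreting cells, at -2.10 (SE 0.74). Dendritic cell genes stood at 1 higher and 0 lower of 8 (12.5% called, median 0.04), and mast cell, basophil and eosinophil genes at 1 higher and 2 lower of 8 (37.5% called, median -0.57), with the eosinophil lectin gene Siglecf at -1.27 (SE 0.59). Epithelial genes stood at 3 higher and 4 lower of 12 (58.3% called, median -0.34), with Ezr, which links membrane to actin, at 1.19 (SE 0.18) and the differentiation factor Elf3 at -0.96 (SE 0.18).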
